A study of Mus musculus with 13 samples.

Results

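The late cold response of primary mouse embryonic fibroblasts was measured on 6 of the 13 arrays of the series, chosen by their labelled time and temperature and not by any measured value. Hypothermia arrays at 32°C and normothermia arrays at 37°C were taken at 4, 8 and 18 h and compared in 3 pairs of the same time. The fibroblasts, connective tissue cells from mouse embryos, were commercial primary cells without a stated genetic change or agent, grown in serum-containing medium until not yet confluent, and temperature was the only treatment. Each array held the pooled RNA of 3 dishes, so no time and temperature was measured on more than 1 array, and the errors given below describe the spread between pairs of different times. A p-value therefore measures the spread of the difference over 4 to 18 h together with the spread between arrays, which cannot be told apart. Because cells were harvested in bulk, a change in the mixture of cells, such as fewer dividing cells, and a change of RNA within each cell cannot be told apart either. The remaining arrays, 1 at 0 h and 37°C and 1 at 0.5, 1 and 2 h for each temperature, were used to set the late values in context.

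Mild cooling slows enzymes and transcription in mammalian cells while a small set of cold-inducible transcripts accumulates. The best known encode RNA-binding proteins, among them Cirbp and Rbm3, which bind mRNAs and affect their translation, stability and processing. Cells kept at low temperature also divide more slowly, and hypothermia is used clinically to limit injury after loss of blood flow.

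Intensities are given on the linear scale as deposited, and differences are log2 of 32°C over 37°C at the same time. The test covered 19938 genes, and the median intensity of the arrays spread over 0.046 on the log2 scale. The labelled cell type fitted its markers. Of 16 fibroblast markers measured, 15 lay at or above the median signal of all genes, with a median log2 level of 11.39. The median level of 7 lists of markers of other cell types, from macrophages to neural cells, lay between 5.91 and 6.98, below the 7.54 of all genes. None of these 7 lists held a gene that met either of the rules of size used below.

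The differences between temperatures were widest at 18 h. Their SD over all genes was 0.18 at 4 h, 0.19 at 8 h and 0.23 at 18 h, against 0.16 at 0.5 and 1 h and 0.18 at 2 h. At 4 h 16 genes differed at least 2-fold, at 8 h 15, and at 18 h 48, of which 41 were lower at 32°C and 7 higher. In the early pairs this number was 6 at 0.5 h, 24 at 1 h and 17 at 2 h, so it did not increase steadily and the 18 h pair alone stood above the others.

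Genes were called consistent when all 3 differences had the same sign and each was at least 0.3, a fold of 1.23. By this rule 77 genes were higher at 32°C, 0.386% of those tested, and 199 were lower, 0.998%. Of these, 60 and 148 lay at or above the median signal. The sign alone was the same in all 3 pairs for 3985 genes higher, 20.0%, and for 4029 lower, 20.2%. At the edge of the rule, Tmem203 with a smallest difference of 0.3011 was kept and Nt5c2 with 0.2989 was not, and on the lower side Rc3h1 with -0.3001 was kept and Zfat with -0.2999 was not.

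In the fit with limma on the 6 arrays, with time as a block, 4 genes passed a Benjamini-Hochberg adjusted p under 0.05 for the late temperature effect, 2 higher (0.01%) and 2 lower (0.01%). An unadjusted p under 0.05 was reached by 1362 genes higher, 6.83%, and 2063 lower, 10.3%. The 4 calls depended on 3 pairs with 2 residual degrees of freedom, and none was left when the 4 h or the 8 h pair was omitted, while 3 genes, all lower, passed without the 18 h pair. The number of calls was much larger, 78 higher and 214 lower, when only genes at or above the median signal were tested.

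Of the genes that passed, Cirbp was the one with the largest increase. Its intensity was 892, 1176 and 1296 at 4, 8 and 18 h at 32°C and 377, 340 and 397 at 37°C, with 357 at 0 h. All 3 cold arrays lay above all 3 warm ones, which stayed close to the start. The log2 differences were 1.24, 1.79 and 1.71, a mean of 1.58 ± 0.29 (SD, n = 3 pairs), with an SE of 0.113 and an adjusted p of 0.045 in limma. In the early pairs Cirbp differed by -0.09, 0.18 and 0.63 at 0.5, 1 and 2 h. Rbm3, the other cold-inducible RNA-binding protein, was already bright at 37°C, with 9212, 8941 and 8751, and read 9293, 9386 and 10190 at 32°C. Its differences of 0.01, 0.07 and 0.22 stayed under the size of the rule (adjusted p = 0.488 in limma).

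Snord118, the small nucleolar RNA U8 that takes part in maturation of the large ribosomal subunit RNAs, also rose. It read 390, 375 and 422 at 32°C and 226, 194 and 219 at 37°C, with no overlap, and its mean difference was 0.90 ± 0.09 (SD, n = 3 pairs; adjusted p = 0.045 in limma). It had differed by 1.08 at 2 h already. Its 2 transcript clusters held the same values. Among the 66 small nucleolar and Cajal body RNAs measured it was the only one consistently higher, while Snord37 and Snord14e were consistently lower.

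Senp8, the protease that removes the ubiquitin-like protein NEDD8 from its targets, fell. It read 57.2, 74.1 and 77.7 at 32°C and 138, 177 and 178 at 37°C, with 178 at 0 h. The cold values lay far below all warm ones, and the differences of -1.27, -1.26 and -1.20 varied less than those of any other called gene (mean -1.24 ± 0.04, SD, n = 3 pairs; adjusted p = 0.0127 in limma). Its signal lay below the median of all genes. Trmt1l, a tRNA methyltransferase of the TRM1 family, fell from 684, 752 and 801 at 37°C to 339, 400 and 459 at 32°C, a mean difference of -0.91 ± 0.10 (SD, n = 3 pairs; adjusted p = 0.045 in limma). At 0.5, 1 and 2 h it had differed by 0.10, 0.05 and -0.28.

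**Figure D1:**
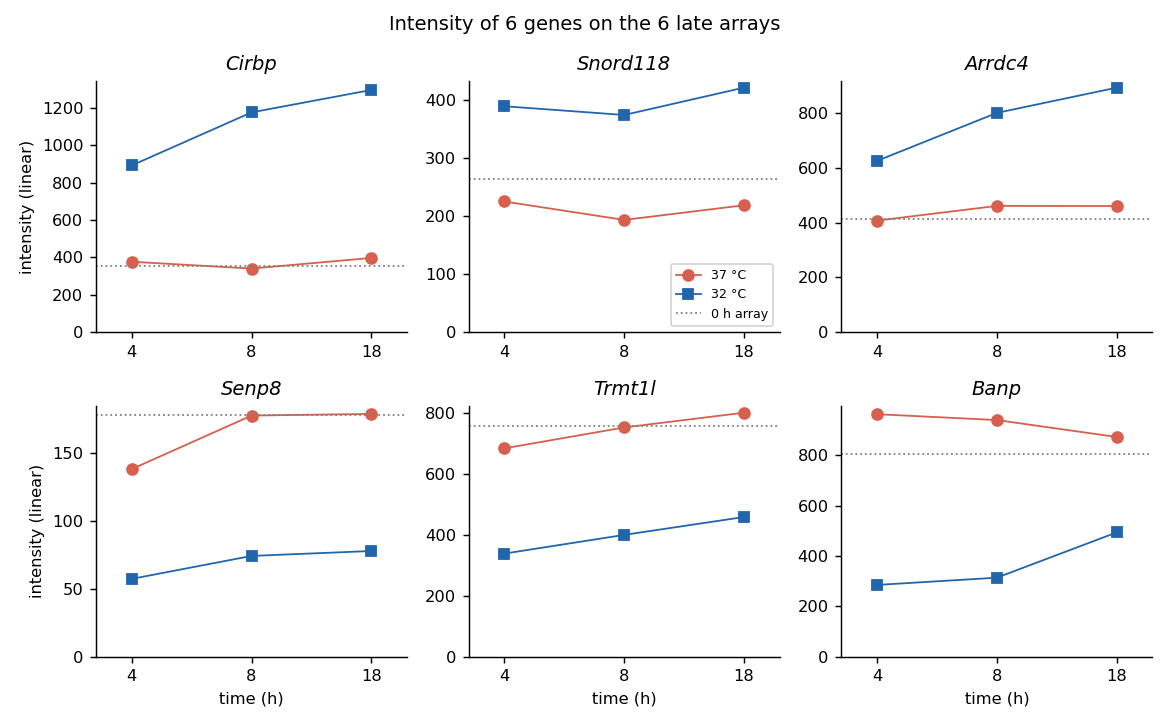
Intensity on the linear scale (vertical axis) at 4, 8 and 18 h (horizontal axis, evenly spaced) for 6 genes, 1 array per point, at 32°C (blue squares) and 37°C (red circles), with the 0 h array as a dotted line. Cirbp, Snord118 and Arrdc4 lie above the warm arrays at all 3 times, and Senp8, Trmt1l and Banp below them.

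The genes with the largest smallest difference among those of sufficient signal were a mixed group on the higher side. Ramp3, which pairs with a calcitonin-type receptor to form an adrenomedullin receptor, read 529, 707 and 704 at 32°C and 314, 310 and 263 at 37°C, and its difference grew from 0.75 to 1.42. Its partner Calcrl went the other way, with 316, 300 and 304 at 32°C and 398, 457 and 405 at 37°C. Arrdc4, an alpha-arrestin that limits glucose uptake, read 626, 801 and 893 against 408, 461 and 461, differences of 0.62, 0.80 and 0.95. Its relative Txnip was also consistently higher, by 0.36, 0.36 and 0.48. Nipal1, a magnesium transporter, differed by 0.61, 0.58 and 0.65 although it had been lower at 32°C at 0.5 and 1 h, by -0.45 and -0.29. Srxn1, sulfiredoxin, which restores oxidized peroxiredoxins, read 1397, 1493 and 1405 against 967, 956 and 922, differences of 0.53, 0.64 and 0.61. The other 4 were Ccdc122 (mean 0.68), Sat2 (0.67), Tuba8, an alpha-tubulin (0.56), and Lrrc4c, a netrin-G ligand (0.56). None of these apart from Cirbp and Snord118 passed the adjusted threshold, and the adjusted p of the others in limma lay at 0.0588 or 0.0593.

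The 10 leading genes on the lower side included Trmt1l, described above. Banp, a DNA-binding protein of unmethylated CG-rich promoters, had the lowest mean of the 10, -1.39. It read 286, 314 and 494 at 32°C and 964, 941 and 873 at 37°C, and the difference shrank from -1.75 at 4 h and -1.58 at 8 h to -0.82 at 18 h. Tasor, a core subunit of the HUSH complex that silences transposons, followed the same course, with -1.25, -1.18 and -0.68, and so did Thap2, a THAP-domain gene, with -1.55, -1.09 and -0.55. In these 3 genes the 18 h difference was thus the smallest, and the contrast of 18 h against 4 and 8 h was 0.85, 0.53 and 0.77 (adjusted p = 0.28, 0.31 and 0.35 in limma). Ubxn2b, a cofactor of the p97 ATPase, grew instead, from -0.62 to -0.88. Ice2, a subunit of the little elongation complex that takes part in transcription of small nuclear RNA genes, differed by -0.67, -0.56 and -0.73. Chordc1, a cochaperone of HSP90, read 800, 890 and 905 against 1390, 1426 and 1325. The remaining genes were Zbtb26, a zinc finger gene (mean -0.68), Rbm12b2, an RNA-binding protein gene (-0.62), and C330018D20Rik (-0.63). The adjusted p of these genes apart from Trmt1l lay between 0.0588 and 0.0795 in limma.

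**Figure D2:**
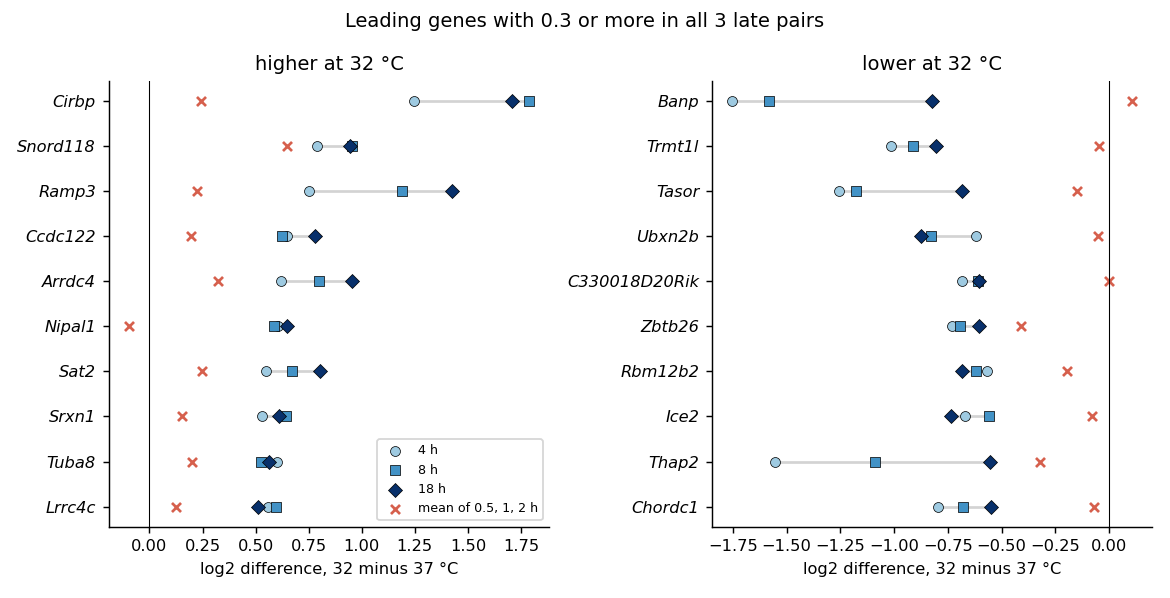
Log2 difference between 32°C and 37°C (horizontal axis) of the 10 leading consistent genes in each direction (rows), 1 symbol per late pair at 4, 8 and 18 h joined by a grey line, with the mean of the 3 early pairs as a cross. Banp, Tasor and Thap2 lie closest to 0 at 18 h, and Ramp3 and Arrdc4 farthest from it at 18 h.

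The early arrays took no part in choosing these genes. Of the 77 consistently higher genes, 34 were higher at 0.5 h, 57 at 1 h and 70 at 2 h, against 58.4%, 49.2% and 51.7% of all genes, and 25 were higher in all 3 early pairs. Of the 199 lower genes, 130, 81 and 156 were lower, against 39.5%, 48.7% and 46.7% of all genes. Most genes of both groups, 60 of 77 and 148 of 199, lay at or above the median signal. Of all genes at that signal 57.9%, 64.3% and 58.4% were higher at 0.5, 1 and 2 h, and 41.6%, 34.7% and 41.2% lower. The median difference of the higher group was -0.04 at 0.5 h, 0.09 at 1 h and 0.28 at 2 h, and 0.43, 0.53 and 0.48 in the late pairs that chose it. In the lower group it was -0.11, 0.04 and -0.14, and then -0.43, -0.51 and -0.49. Relative to the 0 h array, the higher genes stood at a median of 0.45 at 32°C and -0.06 at 37°C over the late times, and 68 of 77 were farther from the start at 32°C. For the lower genes the medians were -0.46 and 0.02, and 184 of 199 were farther from the start at 32°C. The test of the late against the early difference over 12 arrays called no gene in limma, with 751 genes (3.77%) at an unadjusted p under 0.05 in the higher direction and 1534 (7.69%) in the lower. The lowest adjusted p among the consistent genes was 0.0971.

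Consistent genes were sorted by function through 49 lists, on which 26 of the 77 higher and 47 of the 199 lower genes stood. Antioxidant and detoxifying genes under the transcription factor NRF2, which responds to oxidants and electrophiles, held the largest number of higher members. Of 47 measured, 5 were consistently higher and none lower, against 0.386% and 0.998% of all genes. An unadjusted p under 0.05 in limma was reached by 19 upward and 1 downward, against 6.83% and 10.3% of all genes. The list's median over the late pairs was 0.10, against 0.01 over all genes. The study had already reported Nqo1, Srxn1, Gss, Txnrd1, Gclc and Txnrd3 as rising with time at 32°C in the same series. The list was chosen with earlier results of these data known, so its counts are not independent of that report. Nqo1, a quinone reductase, read 1195, 1876 and 2430 at 32°C against 890, 950 and 785 at 37°C. Its difference climbed from 0.43 through 0.98 to 1.63, a 3.10-fold difference at 18 h, and its SD of 0.60 over the pairs kept the adjusted p at 0.0986 in limma. Txnrd1, a thioredoxin reductase, differed by 0.33, 0.63 and 0.39, and Cbr3, a carbonyl reductase, by 0.36, 0.44 and 0.50. Slc7a11, which imports cystine for glutathione synthesis, read 271, 336 and 238 against 218, 142 and 174. Txnrd3 (0.29, 0.50 and 0.51) and Gclc, the catalytic subunit of the first enzyme of glutathione synthesis (0.24, 0.47 and 0.33), fell just short of the rule, and Gss, glutathione synthetase, differed by 0.06, 0.12 and 0.38. Superoxide dismutases, catalase and metallothioneins, 7 genes, held no consistent member (median 0.09).

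Clock genes, which drive daily rhythms of transcription, had the highest list median of the late pairs, 0.21 over 18 measured genes. They were higher in 16 of 18 at 4 h, 13 at 8 h and 16 at 18 h, against 48.1%, 47.5% and 54.6% of all genes. Of the 18, 12 kept that sign throughout, as did 20.0% of all genes and 2073 of the 9969 at or above the median signal. Consistent by size were Ciart, a repressor of the clock activators, with 0.50, 0.38 and 1.13, and the dim Hlf, a PAR bZIP factor, with 0.49, 0.38 and 0.30. A second, dimmer transcript cluster of Ciart differed by 0.58, 0.08 and 0.55. Proteasome genes were higher by a small amount in most members, with a median of 0.09 over 50 genes, but none reached the size of the rule. Of the 50, 33 were higher in all pairs, beside the same 20.0% of all genes.

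Genes of the integrated stress response held Ppp1r15a, a phosphatase subunit that ends this response, at 319, 334 and 331 against 229, 212 and 224, and Chac1, which degrades glutathione, at 686, 823 and 902 against 517, 541 and 717. Both had also differed at 2 h, by 0.82 and 0.85. They were 2 of 30 measured genes, against 0.386% of all genes, and the list's median was 0.07. At 18 h 17 of the 30 were higher at 32°C and 13 lower. Immediate early genes, transcription factor genes induced within minutes of a stimulus, held Nr4a1, with 1.08, 0.49 and 0.60, Nr4a2, with 1.04, 0.53 and 0.46, and Fosb, with 0.30, 0.42 and 0.47, out of 38 whose median was 0.03. The cytokine Il6 was dim and its difference declined with time, from 1.97 at 2 h to 1.30, 0.89 and 0.61. Single consistently higher members of other lists were Plau, the urokinase plasminogen activator (2195, 2109 and 1447 against 1596, 1466 and 1071), and Tgfbi, a TGF-beta induced matrix protein (mean 0.55). Others were Wnt11, a secreted Wnt ligand (0.44), and Nhp2, a protein of H/ACA ribonucleoproteins (0.40). These were 1 each of 29 matrix protease, 22 TGF-beta target, 40 Wnt and 70 ribosome assembly genes, against 0.386% of all genes. The medians of these lists were -0.02, 0.01, 0.025 and 0.00.

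Among genes lower at 32°C, zinc finger genes made up the largest listed group by number, from a long list. Of 344 genes named Zfp, 15 were consistently lower and 1, Zfp580, higher, against 0.998% and 0.386% of all genes. An unadjusted p under 0.05 in limma was reached by 119 downward and 12 upward, against 10.3% and 6.83% of all genes. Their median was -0.11, and 261, 238 and 249 of them were lower at 4, 8 and 18 h, a share above the 50.3%, 50.4% and 44.1% of all genes. The share was also above the 53.6%, 53.8% and 58.3% of genes at or above the median signal, where 207 of the 344 lay. Zfp583 read 213, 191 and 202 against 298, 307 and 316, and Zfp780b 103, 116 and 115 against 160, 164 and 166. The dimmer Zfp983 and Zfp950 had means of -0.56 and -0.53. A further 63 genes of the BTB and SCAN zinc finger families held 5 consistently lower members, among them Zbtb26, Zbtb7b (mean -0.37), Zscan26 (-0.43) and Zscan30 (-0.60), and a median of -0.06. The 30 genes of the HUSH complex and other chromatin repressors had a median of -0.15, with Tasor alone meeting the rule and 13 at an unadjusted p under 0.05 downward.

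Chaperones of the endoplasmic reticulum, which fold secreted proteins, had a similar median at all 3 times, -0.13, -0.10 and -0.12 over 36 genes, of which 34 lay at or above the median signal. Of the 36, 29, 31 and 23 were lower, against 53.6%, 53.8% and 58.3% of all genes at or above the median signal, so that the count at 18 h was close to this share. Sdf2l1, a cofactor of the chaperone BiP, read 1387, 1086 and 1156 against 1985, 1819 and 1797. Creld2 differed by -0.35, -0.56 and -0.62, and Hyou1, a large HSP70-like chaperone, by -0.31, -0.46 and -0.41. At 0.5, 1 and 2 h the list's median had been 0.01, 0.03 and 0.02, against 0.03, 0.04 and 0.03 for genes at or above the median signal. Cytosolic heat shock proteins had a median of -0.04, and Chordc1 was their only consistent gene. Matrix genes moved by a similarly small amount, with 32 of 50 lower in all 3 pairs and a median of -0.09, without a consistent member. Lower in all 3 pairs were 20.2% of all genes, and 3103 of the 9969 at or above the median signal, where 48 of the 50 lay. Among 44 collagen chains Col10a1 was consistently lower, by -0.39, -0.56 and -0.62.

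RNA-binding and splicing regulators had a median of -0.11 over 41 genes, although the list holds Cirbp. Rsrp1, an arginine- and serine-rich nuclear protein, differed by -0.85, -0.52 and -0.61 and had been lower at 2 h by -0.83. Prpf38b, a splicing factor, had nearly the same difference at all times, -0.38, -0.39 and -0.40. Tra2a, a splicing activator, differed by -0.40, -0.64 and -0.38, but its 2 other transcript clusters had means of -0.22 and -0.05. In the NEDD8 pathway Dcun1d2, which helps attach NEDD8 to cullins, read 203, 229 and 292 against 359, 380 and 408, beside Senp8, while the median of the 29 genes was 0.01. Interferon-related genes held Irf1, Irgm1, an immunity-related GTPase, and Pml, the scaffold of nuclear bodies, at means of -0.53, -0.65 and -0.56. These were 3 of 41 measured genes, against 0.998% of all genes. The list's median was -0.04, and at 4 h 22 of the 41 were higher at 32°C. A dimmer second cluster of Irf1 had a mean of 0.05. Slc5a3, which imports the osmolyte myo-inositol, read 828, 669 and 559 against 1185, 1373 and 1063. Adamts4, a matrix protease, had a mean of -0.46. Slc5a3 was 1 of 14 osmotic response genes and Adamts4 1 of 29 matrix protease genes, each list with a median of -0.02.

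Small RNA genes were mostly dim. Of 300 microRNA genes, 5 were consistently lower and none higher, not far from the 0.998% and 0.386% of all genes. Among the 5 were Mir350 at 45.1, 64.3 and 46.0 against 76.3, 95.7 and 77.5, Mirlet7f-1 (mean -0.61), Mir181a-1 (-0.58) and Mir495 (-0.64). Olfactory and vomeronasal receptor genes, which fibroblasts do not use, give a view of dim signals. Of 1203 genes with a median log2 level of 4.45, 2 were consistently higher, 2 consistently lower, 1 higher at 18 h only and 2 lower at 18 h only. Among the 104 genes named by rule, Vmn2r1 and Olfr1045 (higher) and Olfr1313 and Olfr1436 (lower) are of this kind. H3c15, a replication-dependent histone gene, was also dim, at intensities of 43.7 to 131, and differed by -0.36, -0.67 and -1.58.

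Genes seen only at 18 h were defined by a difference of at least 0.6, a fold of 1.52, at 18 h and under 0.2 in size at both 4 and 8 h. By this rule 29 genes were higher at 32°C, 0.145%, of which 22 lay below the median signal, and 100 were lower, 0.502%, of which 69 lay at or above it. The same rule turned to 4 h gave 10 genes higher (0.0502%) and 2 lower (0.01%), and turned to 8 h it gave 3 higher (0.015%) and 2 lower (0.01%). Thus most genes of this kind were those lower at 18 h. At the edge of the rule, Tfap2b with -0.6061 was kept and Nup160 with -0.5994 was not, and Isl2 with 0.6014 was kept and Gm21286 with 0.5992 was not. Each of these values rests on 1 array per temperature. The contrast of 18 h against 4 and 8 h, with 1 residual degree of freedom, called no gene in limma, and an unadjusted p under 0.05 was reached by 1139 genes higher, 5.71%, and 1003 lower, 5.03%.

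Genes of cell division were the largest listed group among the genes lower at 18 h only, 24 of the 35 that stood on any list. The other 65 of the 100 stood on none of the 49 lists. Among 58 measured genes of mitosis 19 met the rule and among 51 of DNA replication 5, against 0.502% of all genes. None of either list was higher at 18 h only or consistent in any direction. At 18 h all 58 mitosis genes and all 51 replication genes were lower at 32°C, against 58.3% of the genes at or above the median signal. The medians were -0.67 and -0.51. At 8 h 53 of the 58 mitosis genes had been higher at 32°C (median 0.21), and 27 of the 51 replication genes (median 0.04). At 4 h 28 of the mitosis genes were higher (median -0.005), and 44 of the replication genes (median 0.11). Of the genes at or above the median signal 45.8% were higher at 4 h and 45.7% at 8 h. The contrast of 18 h against 4 and 8 h had an unadjusted p under 0.05 downward in limma for 54 mitosis and 41 replication genes. Of all genes 5.03% reached this.

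Of the 10 genes with the largest negative 18 h difference in this class at sufficient signal, Pola1 stood on the replication list and Top2a and Hmmr on the mitosis list, and the other 7 on neither. Fbxo5, the inhibitor of the anaphase-promoting complex also called Emi1, read 365, 367 and 179 at 32°C and 367, 334 and 505 at 37°C. Warm and cold arrays were alike at 4 and 8 h and 0.354-fold at 18 h, where the cold array was the lowest and the warm array the highest of the 6. Esco2, the acetyltransferase that establishes sister chromatid cohesion, followed with 283, 263 and 154 against 293, 243 and 416. Pola1, the catalytic subunit of DNA polymerase alpha, read 285, 233 and 148 against 253, 242 and 342. Kntc1, a kinetochore protein, differed by -1.09 at 18 h, Exo1, an exonuclease of DNA repair, by -1.05, Depdc1a by -1.05, Prr11 by -0.99, and Hmmr, a spindle-associated protein, by -0.92. Top2a, topoisomerase II alpha, read 1318, 1148 and 736 against 1286, 1095 and 1415, and Pclaf, a partner of the replication clamp PCNA, 1279, 1140 and 731 against 1173, 1124 and 1371. A second, very dim cluster of Top2a differed by 0.79 at 18 h. Mki67, the gene of the proliferation marker Ki-67, differed by -0.03, -0.07 and -0.90, and the replicative helicase genes Mcm3 and Mcm4 by -0.77 and -0.69 at 18 h. The adjusted p of the contrast for the 10 leading genes lay between 0.24 and 0.27 in limma. Regulators of the cell cycle, named after their values were seen, were also in this class, Foxm1 at -0.65, E2f8 at -0.80 and Rbl1 at -0.66.

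The 0 h array served as a common start for the same genes. Relative to it, the median of the mitosis genes was -0.19, -0.37 and -0.08 at 4, 8 and 18 h at 37°C and -0.20, -0.19 and -0.73 at 32°C. Replication genes stood at -0.24, -0.24 and 0.01 at 37°C and at -0.10, -0.19 and -0.48 at 32°C. At 18 h the warm array was thus near its start while the cold one was below it, and at 8 h mitosis genes were lower in the warm array than in the cold one. For all 100 genes lower at 18 h only, the median change from 0 h at 18 h was -0.71 at 32°C and 0.01 at 37°C. Replication-dependent histones, 34 genes, had medians of 0.08, 0.16 and -0.20, with 26 lower at 18 h. A list of 41 genes of homologous recombination and the Fanconi anaemia pathway, chosen after values had been seen, had -0.02, -0.04 and -0.48. It held 7 genes lower at 18 h only, against 0.502% of all genes.

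**Figure D3:**
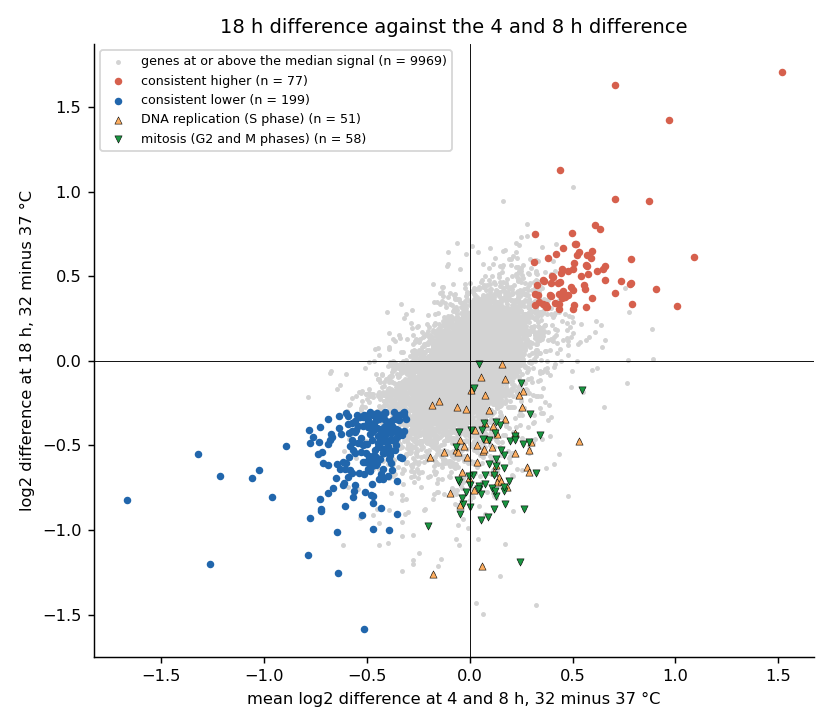
Log2 difference at 18 h (vertical axis) against the mean log2 difference at 4 and 8 h (horizontal axis), 32°C minus 37°C. Grey points are the 9969 genes at or above the median signal, red and blue points all 77 and 199 consistent genes whatever their signal, and triangles the 51 replication and 58 mitosis genes, which all lie below 0 at 18 h and around or above 0 before.

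**Figure D4:**
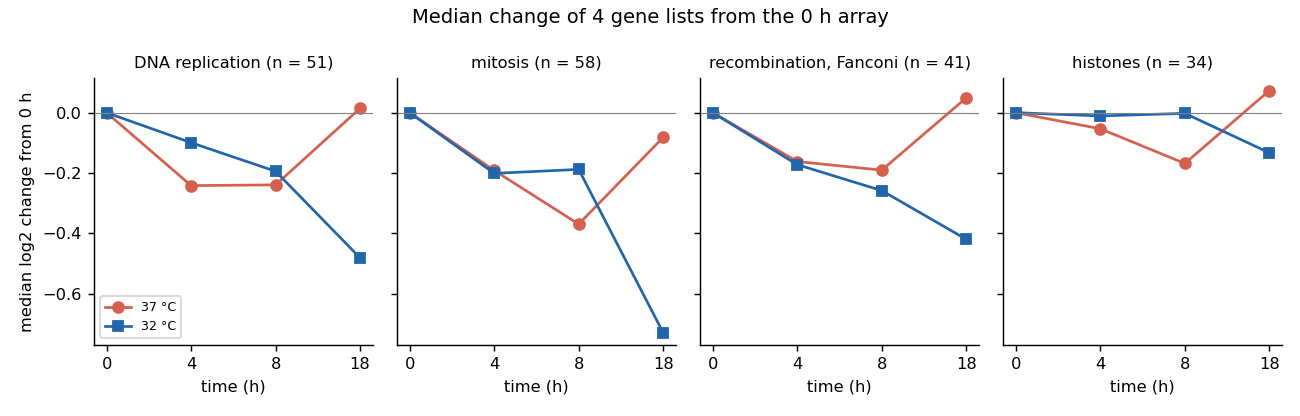
Median log2 change from the 0 h array (vertical axis) by time (horizontal axis, evenly spaced) for 4 gene lists at 32°C (blue squares) and 37°C (red circles). At 18 h the mitosis list stands at -0.73 at 32°C and -0.08 at 37°C.

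Promoters of these genes are shown because the members of the 18 h group shared letters in them. The sequences are RefSeq promoters on the GRCm38.p6 build, 250 bases before to 50 after the transcript start, and were found for 73 of the 100 genes lower at 18 h only, with 86 promoters. The CCAAT box (CCAAT, a site of the factor NF-Y) occurred on either strand in 72.1% of the 86, against 37.4% of the promoters of all genes tested and 37.2% of those at or above the median signal. The CHR element (TTTGAA, known from genes repressed outside of mitosis), searched after values had been seen, occurred in 40.7%, against 14.8% and 11.6%. Both occurred together in 37.2%, against 5.85% and 4.49%. Among the 63 promoters of genes on neither the mitosis nor the replication list the shares were 66.7% for CCAAT and 34.9% for CHR. E2F letters (TTTGGCGC or TTTCCCGC), likewise searched afterwards, occurred in 8.14%, against 2.2% of promoters of all genes tested, and in 28.6% of the 49 promoters of the replication list. In the mitosis list 70.0% of 50 promoters held CHR and 80.0% CCAAT. CHR and CCAAT can share a base. In the first 3 promoters below capitals mark both elements, and in that of Pola1 the E2F letters.
Fbxo5 (chr10:5805416-5805715, minus strand): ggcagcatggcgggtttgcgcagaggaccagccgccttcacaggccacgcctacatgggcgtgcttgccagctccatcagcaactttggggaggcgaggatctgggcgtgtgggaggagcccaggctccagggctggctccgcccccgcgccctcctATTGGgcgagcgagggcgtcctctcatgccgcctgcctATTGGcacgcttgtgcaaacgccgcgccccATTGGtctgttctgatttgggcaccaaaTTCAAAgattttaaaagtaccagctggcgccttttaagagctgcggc
Top2a (chr11:99024140-99024439, minus strand): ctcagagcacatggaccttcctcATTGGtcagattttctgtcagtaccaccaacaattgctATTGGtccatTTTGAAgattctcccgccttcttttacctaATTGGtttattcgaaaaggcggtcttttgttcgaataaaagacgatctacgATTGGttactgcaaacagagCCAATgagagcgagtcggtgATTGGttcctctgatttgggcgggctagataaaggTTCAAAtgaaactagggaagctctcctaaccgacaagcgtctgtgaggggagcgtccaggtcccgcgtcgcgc
Hmmr (chr11:40733388-40733687, minus strand): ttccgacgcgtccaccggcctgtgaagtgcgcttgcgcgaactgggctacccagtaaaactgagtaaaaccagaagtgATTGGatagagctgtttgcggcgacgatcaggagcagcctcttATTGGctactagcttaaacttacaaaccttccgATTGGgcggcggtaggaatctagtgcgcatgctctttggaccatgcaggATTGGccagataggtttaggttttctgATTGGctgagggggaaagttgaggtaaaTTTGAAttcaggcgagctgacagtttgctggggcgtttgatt
Pola1 (chrX:93632106-93632405, minus strand): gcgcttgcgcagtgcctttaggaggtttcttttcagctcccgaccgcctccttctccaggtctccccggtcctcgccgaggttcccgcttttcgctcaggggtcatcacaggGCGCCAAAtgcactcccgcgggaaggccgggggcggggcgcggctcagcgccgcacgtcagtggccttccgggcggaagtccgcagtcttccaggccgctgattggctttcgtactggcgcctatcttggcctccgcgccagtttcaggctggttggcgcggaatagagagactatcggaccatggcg

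Among consistent genes the shares stayed nearer to those of all genes. The 79 promoters of 67 consistently higher genes held the E-box CACGTG, bound by clock and glucose-sensing factors, in 10.1% against 8.26% of promoters of all genes tested, the antioxidant response element core TGACNNNGC in 15.2% against 13.2%, the heat shock element core GAANNTTC in 7.59% against 6.73%, and the mild cold response element TCCCCGCC in 5.06% against 7.57%. Of 22 clock gene promoters 27.3% held the E-box, 27.3% the antioxidant core and 63.6% CCAAT. Of the 54 promoters of the NRF2 list 18.5% held the antioxidant core. Promoters of genes at or above the median signal held the E-box in 10.4%, the antioxidant core in 14.0% and CCAAT in 37.2%. The 207 promoters of 168 consistently lower genes held CRE letters (TGACGTCA) in 4.83% against 2.38%, or 3.06% of promoters of genes at or above the median signal, and CCAAT in 39.1% against 37.4%. The heat shock core and CHR can overlap. Promoters of Cirbp, Arrdc4 and Srxn1 are given as those of leading genes with a match, with the mild cold response element, the E-box and the antioxidant core in capitals in this order. For Cirbp this is the first of 2 annotated promoters, and the other had no match. The promoter of Txnip did not hold the letters CACGTG and that of Nqo1 did not hold TGACNNNGC, and neither is printed. Only these exact letters were searched, so variant sites for the same factors were not looked for.
Cirbp (chr10:80167589-80167888, plus strand): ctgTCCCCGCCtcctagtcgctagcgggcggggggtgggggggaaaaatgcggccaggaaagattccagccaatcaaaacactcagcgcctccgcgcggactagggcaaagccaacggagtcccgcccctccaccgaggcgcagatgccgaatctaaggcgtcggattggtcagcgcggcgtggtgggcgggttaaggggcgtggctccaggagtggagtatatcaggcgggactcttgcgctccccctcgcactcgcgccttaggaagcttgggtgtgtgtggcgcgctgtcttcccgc
Arrdc4 (chr7:68749189-68749488, minus strand): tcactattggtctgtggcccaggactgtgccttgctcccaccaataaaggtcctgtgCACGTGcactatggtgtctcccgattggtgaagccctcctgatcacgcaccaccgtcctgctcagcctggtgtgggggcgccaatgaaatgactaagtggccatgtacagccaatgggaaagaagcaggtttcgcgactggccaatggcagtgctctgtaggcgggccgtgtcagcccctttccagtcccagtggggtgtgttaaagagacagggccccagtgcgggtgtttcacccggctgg
Srxn1 (chr2:152105274-152105573, plus strand): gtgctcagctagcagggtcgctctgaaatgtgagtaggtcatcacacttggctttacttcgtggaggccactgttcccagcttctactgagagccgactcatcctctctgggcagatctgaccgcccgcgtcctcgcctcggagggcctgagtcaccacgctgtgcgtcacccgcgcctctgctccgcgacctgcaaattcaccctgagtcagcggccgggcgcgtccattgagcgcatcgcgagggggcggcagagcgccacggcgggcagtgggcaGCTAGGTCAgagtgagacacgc

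Beyond cell division the genes lower at 18 h only included Ak4, a mitochondrial adenylate kinase (453 against 781 at 18 h), Mmp13, collagenase 3 (537 against 830), Emilin1, an elastic fibre glycoprotein (256 against 392), and the dim Il33 and Zfp101. Ak4 had differed by -0.48 at 2 h, and a dimmer second cluster of it showed no difference at 18 h. On the higher side 7 genes had sufficient signal. Tfrc, the transferrin receptor, read 370, 419 and 424 at 32°C against 391, 375 and 271 at 37°C, and Plaur, the urokinase receptor, 1414, 1571 and 1486 against 1560, 1459 and 959. In both the warm array at 18 h was the lowest of the 6. Rasgrp1, an activator of Ras, read 166, 187 and 253 against 174, 206 and 162, and Gdpd1, a glycerophosphodiesterase, 491, 476 and 840 against 451, 508 and 525. Dgat2, which makes triglycerides, differed by 0.12, 0.12 and 0.61, and Nup62cl by -0.05, -0.07 and 0.69. Olfr767, an olfactory receptor gene, was among the few of its family at or above the median signal, with a difference of 0.94 at 18 h, and it had also differed by 0.52 at 0.5 h.

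Among the genes lower at 18 h only were 4 microRNA genes, Mir541, Mir154, Mir329 and Mir382, all of a chromosome 12 run of hairpins between Mir379 and Mir369. Of 29 measured hairpins of this run 27 were lower at 18 h, with a median of -0.45. The same number was lower at 2 h, with a median of -0.42, while at 1 h the median was 0.24, so the run varied between pairs and was not particular to 18 h. Mir329, the brightest of the 3 named by rule, read 256, 345 and 148 against 282, 331 and 249. The array measures the hairpin locus and not which arm is used, so both mature arms of the 3 are given, with the seed (bases 2 to 8) in capitals. No 2 of them share a seed.
miR-541-5p (chr12:109742422-109742446, plus strand): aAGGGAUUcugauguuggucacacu
miR-541-3p (chr12:109742466-109742487, plus strand): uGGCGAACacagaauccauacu
miR-154-5p (chr12:109738438-109738459, plus strand): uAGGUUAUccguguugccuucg
miR-154-3p (chr12:109738474-109738495, plus strand): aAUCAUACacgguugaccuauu
miR-329-5p (chr12:109713503-109713524, plus strand): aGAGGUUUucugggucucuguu
miR-329-3p (chr12:109713541-109713562, plus strand): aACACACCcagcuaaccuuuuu

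Other functions gave small late medians. Oxidative phosphorylation subunits stood at 0.06 over 83 genes, cytosolic ribosomal proteins at 0.04 over 62, mitochondrial ribosomal proteins at 0.04 over 76, ribosome assembly factors at 0.00 over 70 and lysosome and autophagy genes at -0.02 over 55. Cholesterol synthesis genes changed sign with time, with medians of 0.09, -0.05 and -0.16 over 26 genes. Reference genes had a median of 0.00 over 11 genes, though Tfrc was among them, and Ywhaz read 6780, 6797 and 6780 at 32°C against 6867, 7022 and 6764. Gene length was not part of any rule. The median gene span was 15.0 kb for consistently higher genes, 26.7 kb for consistently lower ones and 27.3 kb for those lower and 13.9 kb for those higher at 18 h only. It was 17.7 kb for all genes tested and 24.3 kb for genes at or above the median signal.

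**Figure D5:**
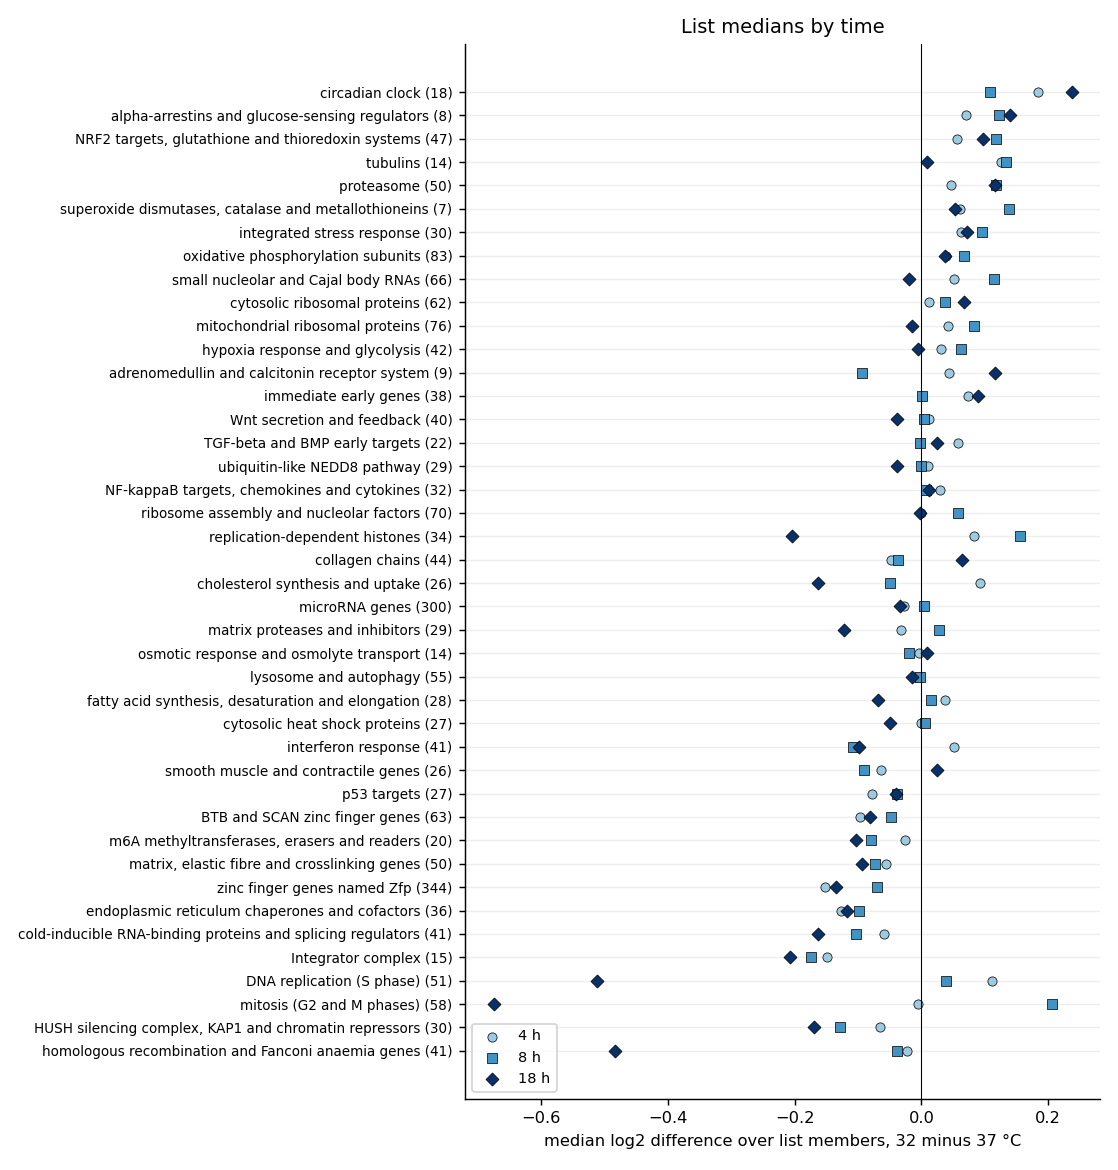
Median log2 difference over the measured members of each list (horizontal axis; number of members in parentheses) at 4, 8 and 18 h, ordered by the median over the late pairs. Lists of cell type markers, receptors, reference genes and the Mir379 run are not drawn. Among those drawn, mitosis, DNA replication and recombination genes have the lowest medians at 18 h, between -0.67 and -0.48, and the Mir379 run stood at -0.45.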

How the data were processed

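RNA was measured on 13 Affymetrix Mouse Gene 1.0 ST arrays. The authors deposited 1 normalized intensity per transcript cluster and array on a linear scale. The summarization and normalization behind it are not given in the sources used here. Values were log2 transformed, and no columns were rescaled. Of 28853 clusters, 21789 had 1 gene symbol in the platform annotation, 21698 of them matched by Entrez identifier to RefSeq genes (GRCm38.p6), and 1621 with several symbols and 5443 outside the annotation were left out. The cluster with the highest mean stood for each of 19938 genes.

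Groups came from the labels. The late temperature effect was fitted with limma 3.58.1 (lmFit, eBayes) in R 4.3.3 on 6 arrays, with the labelled time pairing the arrays as a block, and p-values were 2-sided and Benjamini-Hochberg adjusted. The contrast of 18 h against 4 and 8 h used the same arrays, and that of late against early pairs 12. The study itself ranked single probes, which were not used here. The code was tested on simulated data.

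Named genes were the called genes, the 10 in each direction with the largest smallest difference, the 10 with the largest 18 h difference among those seen only at 18 h (both at or above the median signal), up to 4 consistent and 3 members seen only at 18 h of each list, and 9 genes fixed by name. The members, rules and lists were chosen with earlier results of these data known. Alternatives were quantile normalization, relative ranks, a signal filter, all clusters, a variance trend, no block, the spread of 12 arrays, other sizes and leaving out pairs. Figures were drawn with matplotlib 3.10.9.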

Additional observations from a re-analysis of the deposited data

Results flagged for a closer look

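Endoplasmic reticulum chaperones were lower at 32°C in all 3 late pairs and higher in all 3 early pairs by their median, -0.11 late and 0.03 early over 36 genes. The early medians of the list, 0.01, 0.03 and 0.02, were no higher than those of all genes at or above the median signal, 0.03, 0.04 and 0.03. Erythroid markers, 7 dim genes, went the other way, 0.11 late and -0.03 early. Neither difference between early and late pairs was tested.

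Transcript clusters with several symbols or outside the annotation, 7064 in all, were not part of any test. By the same rules 64 of them were consistently higher (0.906%, 21 at or above the median signal of the genes tested), 27 consistently lower (0.382%), 8 higher at 18 h only (0.113%) and 18 lower at 18 h only (0.255%).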

How the results depend on the processing

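Counts of genes varied widely, with 41 of 88 alternative counts over 1.5 times from the reported one and the cause not tested. The 88 held counts past the threshold in limma, given first, and counts by the rules of size. For the latter some alternatives changed the size itself. For the late temperature effect (2 higher, 2 lower), quantile normalization gave 0 and 1, relative ranks 0 and 0, all clusters 0 and 1, genes at or above the median signal 78 and 214, a mean-variance trend 123 and 276, the fit with no replicate block (unpaired) 43 and 175, and the spread of all 12 paired arrays 160 and 428. Omitting 1 pair gave 0 higher and 0 to 3 lower. All 4 reported genes were among those called with the trend, without the block and with the spread of 12 arrays, and 3 of 4 with the signal filter, where Senp8 was not tested. Late against early gave 1 higher and 6 lower with the trend and 0 otherwise. The contrast of 18 h gave 0 throughout. It was not run without a pair, which leaves no residual degrees of freedom, or without the block.

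The consistent rule gave 239 higher and 570 lower at 0.2, 13 and 26 at 0.5, and 130 to 219 and 316 to 543 with 1 pair omitted. Genes seen only at 18 h numbered 14 higher with quantile normalization, 7 higher at or above the median signal, 1 and 10 with at least 1 at 18 h, 8 and 30 with under 0.1 and 167 lower with under 0.3 at 4 and 8 h. Omitting the 4 h or 8 h pair, chosen after seeing the data, gave 36 to 51 higher and 151 to 194 lower. Relative ranks give no size. No called gene, leading consistent gene or gene fixed by name changed sign in the late effect in any alternative run. No leading gene seen only at 18 h did so in the 18 h contrast. Genes named only through lists were not checked. The signal filter, the trend, the fit without block and the spread of all paired arrays left each estimate unchanged. With all clusters, the sign was read from the tested cluster of each gene only. Of 244 list medians, 28 moved by more than the SD of the pairs.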
